A study of Homo sapiens with 6 samples.

Results

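The HIST genes are the clustered histone genes of the human genome. They were taken as every line of the RNA-seq table whose gene symbol begins with HIST1H, HIST2H, HIST3H or HIST4H, which gave 63 of 17990 genes. By the histone they encode, 6 were H1, 15 H2A, 18 H2B, 11 H3 and 13 H4 genes, and by cluster 55 were HIST1, 4 HIST2, 3 HIST3 and 1 HIST4. A gene was taken as measured when its counts averaged at least 20 over the libraries, which left 25 HIST genes (2 H1, 8 H2A, 10 H2B, 3 H3 and 2 H4) and 38 below that minimum. Of all genes, 11916 passed. HIST1H2BN lay just inside the minimum with a mean count of 21.7, and HIST1H4B just outside it with 18.7.

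The libraries came from LNCaP, an androgen-responsive human prostate cancer cell line, and each was made from total RNA. Whether polyadenylated RNA was selected for the libraries was not stated, and the level of an mRNA without a poly(A) tail depends on that step. All cells first spent 3 days in phenol red-free medium with charcoal/dextran treated serum, which removes steroid hormones. DHT (dihydrotestosterone, the potent natural androgen) was then given at 10 nM for 3, 6, 12, 24 or 48 h, and the untreated cells of 0 h were the control. There was 1 library per time, 6 in all, so there is no spread between replicates and no test of the treatment. Every DHT library was set against the same 0 h library, so the comparisons are not independent of each other.

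Nucleosomes are built from H2A, H2B, H3 and H4, and H1 binds the linker DNA between them. Most clustered histone genes are replication-dependent: they have no introns, are transcribed mainly in S phase, and give mRNAs that end just after a conserved stem-loop in place of a poly(A) tail. Some of them also give polyadenylated mRNAs, in which transcription runs past the stem-loop, and these are known from differentiated and non-dividing cells. Many H2A and H2B genes lie head to head and share the DNA between their start sites. Androgen is the growth signal of LNCaP cells, which bears on genes whose RNA is tied to DNA synthesis.

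The stem-loop is shown because it is the signal that sets how a histone mRNA ends. A stem of 6 pairs around a loop of 4 bases, searched in the GENCODE v29 transcripts by the usual histone consensus, was found in 26 of the 63 HIST genes, and in 17 of the 25 measured. Many of the GENCODE models stop at or near the stop codon, so a gene without a match may only have a short model. The commonest stem was in 13 genes. The stem-loops of 6 measured genes are given 5′ to 3′ as DNA, with the 16 bases of the stem-loop in capitals and 5 bases on either side.
HIST2H2BE: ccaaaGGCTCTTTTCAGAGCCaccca
HIST3H2A: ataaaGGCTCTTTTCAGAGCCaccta
HIST1H2AG: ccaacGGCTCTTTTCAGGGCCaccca
HIST1H2BC: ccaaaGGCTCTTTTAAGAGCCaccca
HIST1H3E: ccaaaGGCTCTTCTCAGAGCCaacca
HIST1H4H: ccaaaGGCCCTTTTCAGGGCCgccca
Stem-loops of H2A and H2B genes mostly shared 1 set of letters, and those of H4 genes had their own. In HIST2H2BE, the GENCODE transcript went on for 1729 bases past the stem-loop. In HIST1H2BC and HIST1H2BD, the spliced transcript of each gene held no match, while the unspliced one did.

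The listed counts added up to between 13179917 and 20587956 per library, with the largest total at 24 h. Levels are CPM, a gene's counts scaled to the same library total. A change is log2 of (CPM + 1) with DHT over (CPM + 1) at 0 h, and moves of 2-fold or more on that scale, up or down, were called. The added 1 understates the change of low genes. Intervals are exact 95% intervals for counting error alone. The labels mention no molecular identifiers, so PCR copies may make those intervals too narrow. The luminal prostate marker KLK3 lay between 4566 and 11950 CPM. The basal markers KRT5, KRT14 and TP63 were at most 0.660 CPM. Of the fibroblast and leukocyte markers, COL1A1 reached 64.3 CPM and CD68 18.3 CPM, while COL1A2 and PTPRC were at or near 0.

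The HIST genes did not move as a block after DHT. Of the 25 measured, 5 passed 2-fold at some time and 20 at none, which makes 9 calls among 125 gene and time values. HIST2H2BE, an H2B gene, was higher at 6, 12, 24 and 48 h. HIST1H2BC was higher at 6 h, and HIST1H1E and HIST1H2BD at 48 h. HIST3H2A was lower at 12 and 24 h.

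At 3 h, 0 of 25 HIST genes were higher and 0 lower, where 0.747% and 0.864% of all measured genes were. At 6 h, 2 HIST genes were higher and 0 lower, which is 8% and 0% of them, against 15.3% and 3.01% of all genes. At 12 h, 1 was higher and 1 lower, against 11% and 7.99% of all genes. The share of all genes lower then takes in 379 genes of chromosome 4 and 160 of distal chromosome 15. Their median changes at 12 h were -2.15 and -2.75, against 0.07 for the other genes. No HIST gene lies in these regions, so the 12 h shares lower are not a like comparison. The 24 h library also gave 1 higher and 1 lower, or 4% each way, against 10.5% and 10.8% of all genes. By 48 h, 3 HIST genes (12%) were higher and 0 lower, against 15% and 7.33%. With the main settings, the share of HIST genes called was below that of all genes in each direction at every time, on counts of 0 to 3 genes. Under some other settings the share called higher at 48 h was above that of all genes, and under others it stayed below. Median-of-ratios scaling gave 5 of 25 against 16.6%, and an added 0.25 CPM gave 6 of 25 against 16.4%. Totals without chromosome 4 and distal chromosome 15 gave 4 of 25 against 15.4%, and a minimum mean count of 50 gave 3 of 19 against 15.5%. A 1.5-fold rule gave 3, 6 and 8 of 25 at 3, 24 and 48 h, against 2.52%, 21.6% and 25.4%. The 48 h share stayed below with the deposited RPM denominator (3 of 25 against 14.9%) and an added 5 CPM (1 of 25 against 10.8%). It also did with no minimum (3 of 57 against 10.8%) and with 0 h and 3 h averaged as the control (2 of 25 against 17.2%). The median change of the HIST genes was 0.16, 0.15, -0.21, -0.23 and 0.26 at 3, 6, 12, 24 and 48 h, beside -0.08, 0.08, 0.03, -0.09 and -0.06 for all genes. The HIST median was above that of all genes at 3, 6 and 48 h and below it at 12 and 24 h. The order at 24 h turned with a minimum mean count of 50 (0.01 against -0.06 for all genes) and with no minimum (-0.04 against -0.07), and at 6 h with 0 h and 3 h averaged as the control (0.06 against 0.10). HIST transcripts had a median GC of 56.2%, against 49.5% for all genes. GC was taken over the paired GENCODE transcript, which for 7 of the 25 holds little beyond the coding part. It was 62.8% in HIST1H2AK (393 bases) and 42.0% in HIST1H2AC (1654 bases). GC-corrected values of HIST genes thus depend on how much of the transcript the model holds. With the trend of change on GC removed, 3 HIST genes were higher at 6 h, 6 at 24 h and 8 at 48 h, against 3.80%, 7.09% and 7.15% of all genes, and 0 were lower at these times. The share of HIST genes called higher was then above that of all genes at all 3 times. The 6 at 24 h were HIST2H2BE, HIST1H2BC, HIST1H2BD, HIST1H3E, HIST1H1E and HIST1H2AD. The HIST median at 24 h was then 0.07, against 0.01 for all genes.

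**Figure D1:**
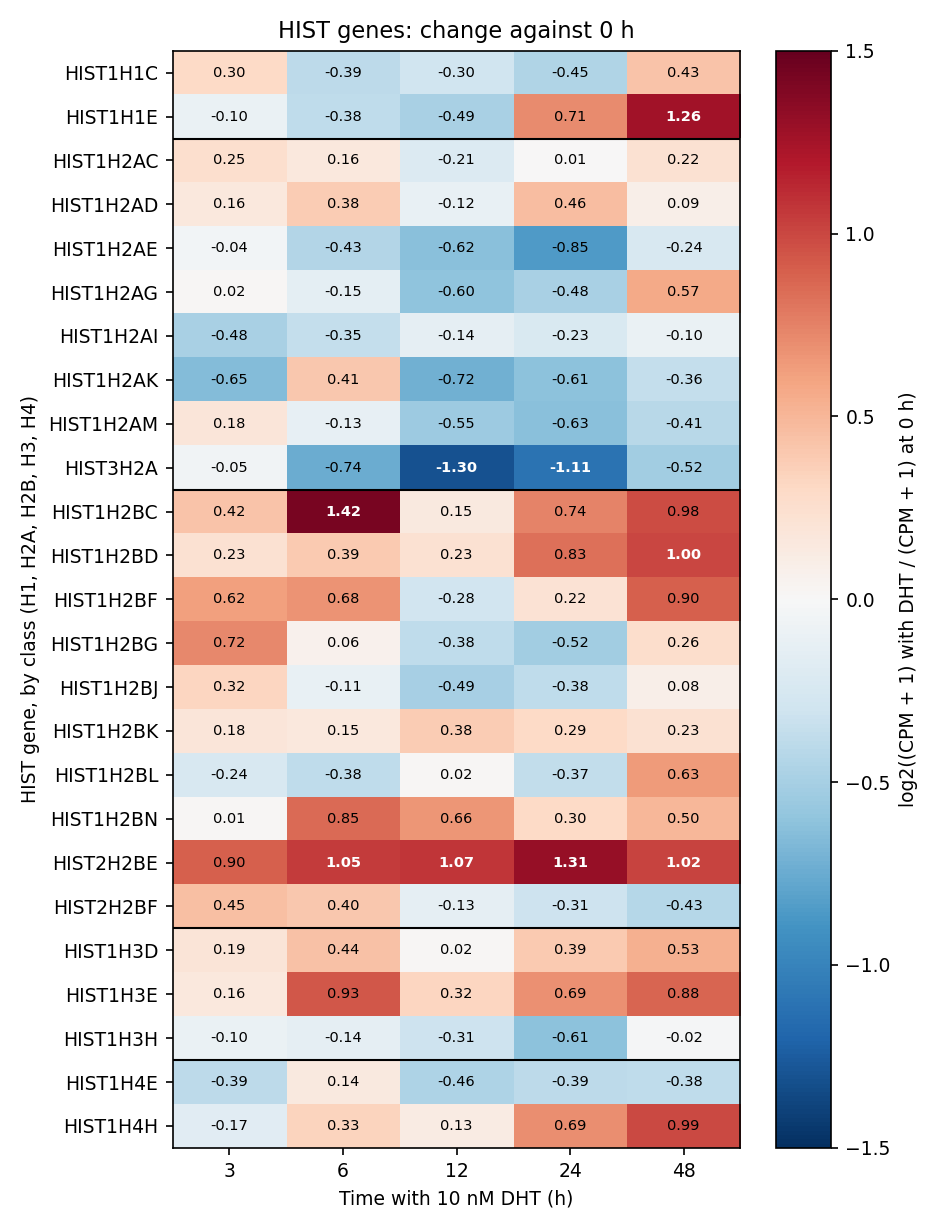
Change of each of the 25 measured HIST genes against 0 h, by time with DHT (x axis, h) and by gene (y axis, in class order). Colour and printed value are log2((CPM + 1) with DHT / (CPM + 1) at 0 h), and bold values are at least 2-fold. HIST2H2BE is the one row with bold values at 4 times, and the H2A rows are mostly blue at 12 and 24 h.

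Individual genes had their extremes at different times. The highest CPM of a measured HIST gene was at 48 h in 8 genes, at 3 h and at 6 h in 5 each, at 0 h in 4, at 24 h in 2 and at 12 h in 1. The lowest was at 12 h in 9 genes, at 0 h in 7, at 24 h in 5, at 3 h in 2, and at 6 h and at 48 h in 1 each. The median gene spanned 2.12-fold between its lowest and highest library. For 2 genes, the counting interval of the ratio to 0 h held 1 at every time.

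Among the H2B genes, HIST2H2BE stood apart by its size. H2B pairs with H2A in the nucleosome, and HIST2H2BE sits in the small HIST2 cluster on chromosome 1. HIST2H2BE had 176, 328, 366, 371, 436 and 357 CPM in time order, starting at 0 h. Every DHT library was above the 0 h library, the 24 h one by most. The ratio to 0 h at 24 h was 2.48 (2.37 to 2.60), and the log2 changes at 3, 6, 12, 24 and 48 h were 0.90, 1.05, 1.07, 1.31 and 1.02. The 3 h value was short of 2-fold. The calls at 6, 12 and 48 h lay close to the threshold, with ratios of 2.08, 2.11 and 2.03. These calls rest on the single 0 h library. With the 0 h and 3 h libraries averaged as the control, the log2 change at 24 h was 0.79, short of 2-fold. The 3 h cells had been given DHT and this gene was already higher there, so that control lowers the change in advance. It cannot show how far the calls depend on the 0 h library. With the GC trend removed, the values at 6 and 12 h were 0.89 and 0.95, so those calls were lost, and those at 24 and 48 h were 1.36 and 1.09.

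HIST2H2BE and HIST1H1C held most of the HIST counts between them. HIST2H2BE held 21.6%, 30.8%, 37.3%, 39.7%, 42.4% and 29.9% of the counts of the 63 genes in time order, and HIST1H1C 36.0%, 33.8%, 22.8%, 25.4%, 20.9% and 33.0%. HIST1H1C was thus ahead at 0, 3 and 48 h and HIST2H2BE at 6, 12 and 24 h. Counts grow with transcript length, and per kilobase of the paired GENCODE transcript HIST2H2BE (2194 bases) was at 80.2 CPM per kb at 0 h, with rank 4 among the 25. At 24 h it was at 199 CPM per kb with rank 3, behind HIST1H1C at 334 and HIST1H2BK at 246 CPM per kb. For 7 of the 25 genes, HIST1H1C and HIST1H2BK among them, the paired transcript holds little beyond the coding part, so the levels per kilobase of those are set too high if longer transcripts were counted.

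The promoters of the called genes are shown because H2A and H2B promoters carry a known octamer, and because the shared DNA of head-to-head pairs lies there. Each sequence is from RefSeq on GRCh38.p14 and runs 5′ to 3′ on the gene's strand from 250 bases before to 50 after the start. Capitals mark the octamer ATTTGCAT, TATAAA and CCAAT, on either strand. The windows are chr1:149886633-149886932 (minus strand) for HIST2H2BE, chr6:26123877-26124176 (minus strand) for HIST1H2BC, chr6:26157871-26158170 (plus strand) for HIST1H2BD, chr6:26156079-26156378 (plus strand) for HIST1H1E and chr1:228457824-228458123 (minus strand) for HIST3H2A.
HIST2H2BE: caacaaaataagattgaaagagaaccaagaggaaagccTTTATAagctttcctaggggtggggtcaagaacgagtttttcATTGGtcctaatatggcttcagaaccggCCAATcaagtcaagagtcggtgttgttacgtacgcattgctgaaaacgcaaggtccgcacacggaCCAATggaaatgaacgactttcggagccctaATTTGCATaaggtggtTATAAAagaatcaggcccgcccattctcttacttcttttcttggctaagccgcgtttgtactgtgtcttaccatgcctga
HIST1H2BC: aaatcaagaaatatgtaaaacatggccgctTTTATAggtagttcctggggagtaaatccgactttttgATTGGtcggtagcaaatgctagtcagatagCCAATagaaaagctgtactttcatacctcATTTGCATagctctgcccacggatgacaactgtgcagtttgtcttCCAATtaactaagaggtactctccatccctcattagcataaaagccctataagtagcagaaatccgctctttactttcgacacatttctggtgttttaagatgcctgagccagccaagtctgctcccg
HIST1H2BD: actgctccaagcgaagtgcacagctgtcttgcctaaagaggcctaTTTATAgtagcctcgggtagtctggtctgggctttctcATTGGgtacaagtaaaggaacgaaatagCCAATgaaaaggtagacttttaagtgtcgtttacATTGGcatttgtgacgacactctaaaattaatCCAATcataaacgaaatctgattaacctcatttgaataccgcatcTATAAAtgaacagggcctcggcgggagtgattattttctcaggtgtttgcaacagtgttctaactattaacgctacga
HIST1H1E: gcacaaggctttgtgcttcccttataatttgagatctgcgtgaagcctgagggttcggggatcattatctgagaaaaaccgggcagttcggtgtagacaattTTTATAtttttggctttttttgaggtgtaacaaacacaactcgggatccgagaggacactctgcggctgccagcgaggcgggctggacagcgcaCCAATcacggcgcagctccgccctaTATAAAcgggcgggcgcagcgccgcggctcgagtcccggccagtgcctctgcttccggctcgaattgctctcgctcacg
HIST3H2A: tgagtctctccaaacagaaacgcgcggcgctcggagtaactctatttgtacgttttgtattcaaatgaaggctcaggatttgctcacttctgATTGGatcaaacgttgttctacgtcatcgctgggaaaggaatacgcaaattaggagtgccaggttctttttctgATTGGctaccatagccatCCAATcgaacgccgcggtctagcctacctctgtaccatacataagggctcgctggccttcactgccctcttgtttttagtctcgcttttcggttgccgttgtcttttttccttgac
The octamer lay 46 bases upstream of the start in HIST2H2BE and 123 bases upstream in HIST1H2BC. Those letters were in none of the other 3 windows. TATAAA lay 30, 28 and 29 bases upstream in HIST2H2BE, HIST1H2BD and HIST1H1E, and HIST3H2A had no match to it.

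Over all HIST promoters, 58 of the 63 genes had an entry. The octamer was in 44.8% of them, against 1.80% of all 27305 promoters, with 11 of 14 H2A and 14 of 18 H2B promoters but 0 of 6 H1 and 0 of 11 H4. TATAAA was in 65.5% against 12.0%, and CCAAT in 86.2% against 35.7%. AGAACA, a half-site of the androgen response element, searched on both strands like the others, was in 32.8% of HIST promoters and 14.9% of all. A pair of AGAACA half-sites as an inverted repeat 3 bases apart, with no mismatch allowed, was in 0 of 58 HIST promoters and in 1 of all. So rare a match cannot set HIST promoters apart from others. Of the 25 measured genes, 13 had the octamer, and 12 of these lay above 0 at 3 h with a median change of 0.25, while 4 of the 12 without it did, with a median of -0.10. By 12 h the medians were -0.21 and -0.22, and at 48 h the order was the other way, 0.23 with the octamer and 0.46 without. The 13 genes do not hold 13 separate octamers. HIST1H2AD and HIST1H3D have the same window, and its octamer is also in that of HIST1H2BF. HIST1H2AC and HIST1H2BC share 1 octamer, as do HIST1H2AE and HIST1H2BG, and HIST1H2AG and HIST1H2BJ. The genes with an octamer are mostly H2A and H2B genes, so the motif and the class go together. A match is no evidence that a factor was bound.

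**Figure D2:**
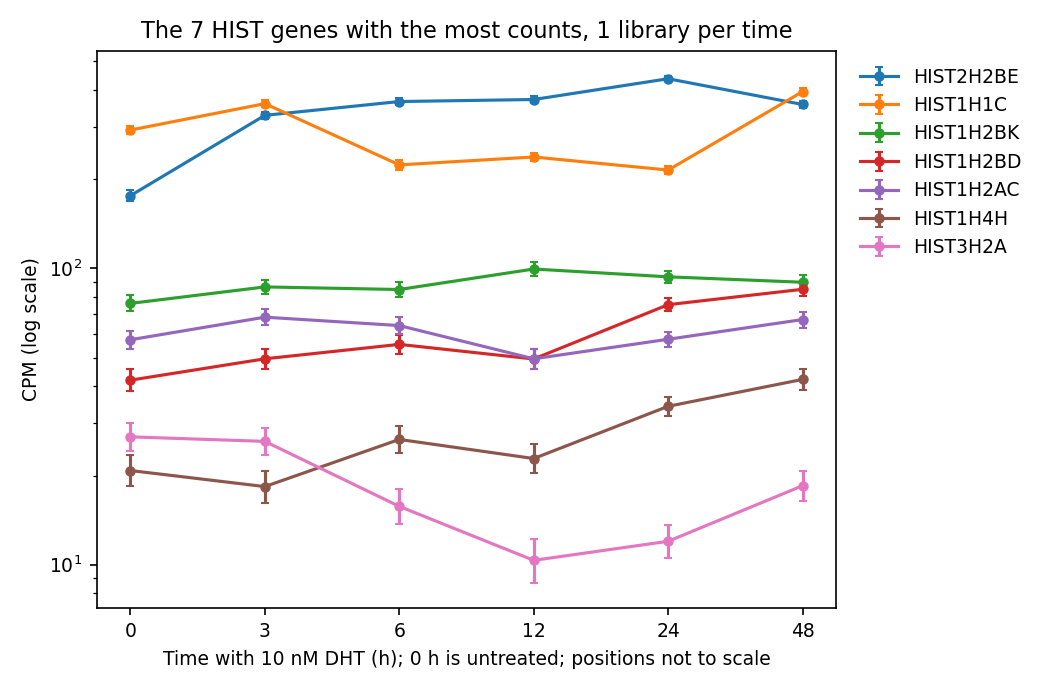
Level of the 7 HIST genes with the most counts (y axis, CPM, log scale, not divided by length) in each library (x axis, h with DHT, with 0 h untreated). Bars are exact 95% intervals for counting error, with 1 library per point. HIST2H2BE lies lowest at 0 h with 176 CPM and highest at 24 h with 436 CPM, and HIST3H2A is lowest at 12 h with 10.3 CPM.

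The other H2B genes gave smaller or shorter differences. HIST1H2BC had 4.40, 6.24, 13.5, 4.99, 8.01 and 9.64 CPM in time order, highest at 6 h. Its ratio there was 3.07 (2.27 to 4.2) and its log2 change 1.42, from 181 counts with DHT and 58 counts at 0 h. At 48 h its ratio was 2.19 (1.60 to 3.02), with a log2 change of 0.98 that did not pass. HIST1H2BD had 42.0, 49.5, 55.4, 49.5, 75.4 and 85.0 CPM, highest in the last libraries. At 48 h its ratio was 2.03 (1.83 to 2.24), with a log2 change of 1.001 that only just passed. HIST1H2BK, rank 3 by counts, was between 76.2 and 99.5 CPM, a range of 1.31-fold. The 6 further H2B genes, HIST1H2BF, HIST1H2BG, HIST1H2BJ, HIST1H2BL, HIST1H2BN and HIST2H2BF, were between 0.835 and 7.23 CPM and were called at no time. Without the added 1 CPM, the ratio of HIST1H2BF was 2.34 (1.44 to 3.91) at 48 h. That of HIST1H2BN was 2.77 (1.36 to 6.11) at 6 h and 2.29 (1.09 to 5.13) at 12 h.

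Beside this, most H2A genes lay low at 12 and 24 h before GC correction. HIST3H2A, from the HIST3 cluster on chromosome 1, had 27.0, 26.1, 15.7, 10.3, 12.0 and 18.5 CPM. The level was lowest at 12 h and partly back by 48 h. The ratio to 0 h was 0.383 (0.313 to 0.467) at 12 h and 0.444 (0.376 to 0.524) at 24 h, with log2 changes of -1.30 and -1.11. With the GC trend removed it was lower at 12 h (-1.02) and short of 2-fold at 24 h (-0.65). All 8 H2A genes were below 0 at 12 h, 6 of them with an interval below 1, and 1 passed 2-fold. After GC correction HIST1H2AD (0.31) and HIST1H2AI (0.21) were above 0 at 12 h. HIST1H2AD also went the other way at 24 h, with 4.86 CPM against 3.26 CPM at 0 h and a log2 change of 0.46, or 1.06 with the GC trend removed. HIST1H2AM had 6.61 CPM at 24 h against 10.8 CPM at 0 h (log2 change -0.63). HIST1H2AE, short of the threshold, had 3.06 CPM at 24 h against 6.30 CPM at 0 h (log2 change -0.85). HIST1H2AC, the H2A gene with the most counts, had 57.7 CPM at 24 h against 57.4 CPM at 0 h. With the GC trend removed, HIST1H2AM (-0.06) and HIST1H2AK (-0.01) were near 0 at 24 h, and HIST1H2AI was at 0.28. HIST1H2AE (-0.44), HIST1H2AG (-0.49) and HIST1H2AC (-0.38) were then below 0. Without GC correction, the median over H2A genes was -0.01, -0.14, -0.57, -0.55 and -0.17 at 3, 6, 12, 24 and 48 h. Over H2B genes it was 0.37, 0.40, 0.08, 0.26 and 0.57.

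H2B counts were thus larger relative to H2A counts in the DHT libraries. Summed over the class, H2B had 316, 496, 542, 541, 628 and 565 CPM in time order, and H2A 125, 134, 121, 86.7, 98.0 and 126 CPM. The H2B to H2A ratio was 6.41 (6.12 to 6.73) at 24 h against 2.53 (2.39 to 2.68) at 0 h. Without HIST2H2BE, a step added after the values were seen, the ratio was 1.96 (1.86 to 2.07) at 24 h against 1.12 (1.05 to 1.20) at 0 h, and the H2B sum 140, 168, 176, 169, 192 and 207 CPM. H2B held 61.1% of all HIST counts at 24 h against 38.9% at 0 h. These sums weigh genes by their counts, so a few genes can set them. At 24 h against 0 h, HIST1H2BD had 75.4 against 42.0 CPM and HIST1H2BK 93.6 against 76.2 CPM. In the H2A sum, HIST3H2A had 12.0 against 27.0 CPM. Of the 10 measured H2B genes, 6 lay above 0 at 24 h, while HIST1H2BG, HIST1H2BJ, HIST1H2BL and HIST2H2BF lay below.

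**Figure D3:**
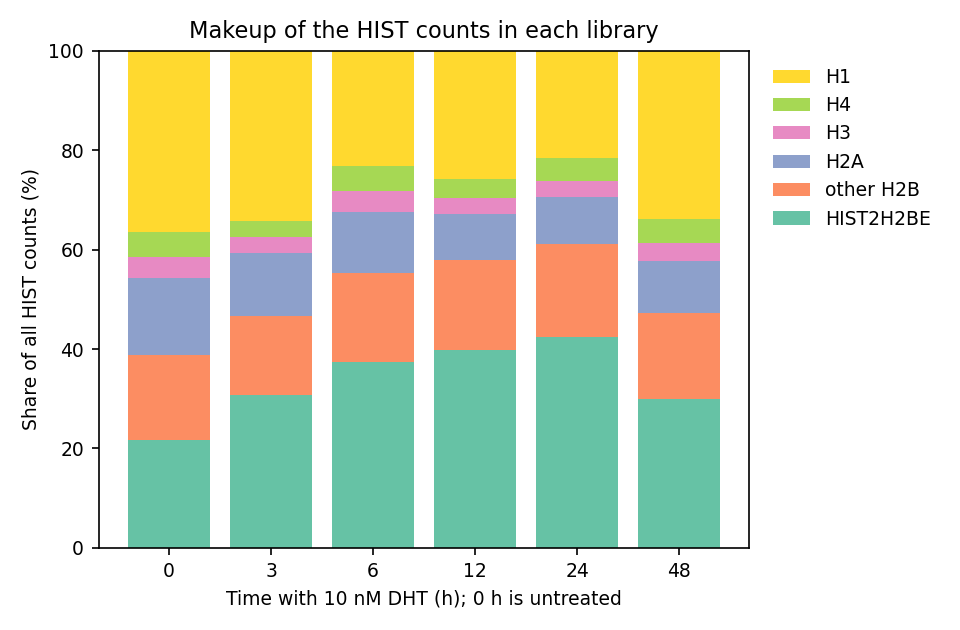
Share of all HIST counts (y axis, %) by class in each library (x axis, h with DHT, with 0 h untreated), with HIST2H2BE drawn apart from the other H2B genes. H2B as a whole holds 38.9% at 0 h and 61.1% at 24 h, while H1 is widest at 0, 3 and 48 h.

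The head-to-head pairs set an H2B gene beside an H2A gene that shares its promoter DNA. Starts lay within 1000 bases of each other in 11 pairs, and both genes were measured in 6. This comparison was added after the values were seen. The H2B gene had the larger log2 change in 6, 5, 5, 4 and 5 of these 6 pairs at 3, 6, 12, 24 and 48 h. The median difference, H2B minus H2A, was 0.38, 0.37, 0.20, 0.21 and 0.74. At 12 h it ran between -0.17 and 1.38, the top value being HIST1H2BN over HIST1H2AK, and HIST1H2BN rests on 11 to 31 counts per library. After GC correction the H2B gene was above in 5 pairs at 3 h and in 4 at each later time. HIST2H2BE and its partner HIST2H2AC start 236 bases apart, yet averaged 5214 and 9.83 counts per library. HIST3H2A and its partner HIST3H2BB start 230 bases apart and averaged 267 and 11.5 counts.

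The linker histone H1 followed another course, set by HIST1H1C, which encodes the somatic subtype H1.2. HIST1H1C had 293, 360, 223, 238, 215 and 395 CPM in time order. It was high at 3 and 48 h and low in the 3 libraries between, and the highest and lowest library differed 1.84-fold. Its log2 changes of 0.30, -0.39, -0.30, -0.45 and 0.43 all stayed short of 2-fold, with intervals of the ratio to 0 h that did not hold 1. GC-corrected, they were 0.29, -0.06, -0.02, 0.00 and 0.86, so the low values at 6, 12 and 24 h were not seen under that setting. HIST1H1E, which encodes H1.4, had 3.49, 3.19, 2.46, 2.20, 6.36 and 9.77 CPM. It was high in the last 2 libraries, with a ratio at 48 h of 2.80 (2.0 to 3.99) and a log2 change of 1.26. The other 4 H1 genes were below the minimum.

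No H3 or H4 gene passed 2-fold on the scale with 1 CPM added. HIST1H3E came nearest among the H3 genes, with 9.17 CPM at 6 h against 4.32 CPM at 0 h and a log2 change of 0.93. Its plain ratio to 0 h was 2.12 (1.54 to 2.96) at 6 h and 2.03 (1.48 to 2.82) at 48 h. HIST1H3D was at most 13.8 CPM, at 48 h, against 9.26 CPM at 0 h. HIST1H3H went the other way at 24 h, with 11.7 CPM against 18.4 CPM at 0 h (log2 change -0.61). HIST1H4H had 20.8, 18.4, 26.5, 22.8, 34.2 and 42.2 CPM, and its 48 h log2 change of 0.99 was just short of the threshold. Its plain ratio there was 2.03 (1.76 to 2.35). HIST1H4E was between 10.6 and 16.7 CPM. After GC correction, HIST1H3E passed 2-fold at 6, 24 and 48 h (1.32, 1.18 and 1.33), HIST1H3D at 48 h (1.02) and HIST1H4H at 48 h (1.28). The H3 sum ran between 30.8 and 43.2 CPM and the H4 sum between 34.5 and 57.4 CPM.

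The 38 genes below the minimum added little. They summed to 10.2, 14.4, 13.5, 6.97, 7.04 and 10.6 CPM in time order, at most 1.38% of HIST counts. Of the 63 genes, 6 had no count in any library, where 3 counts would be between 0.146 and 0.228 CPM, and 44 had a count in every library. HIST1H4B, HIST1H4C and HIST1H3J were the 3 highest of those below, with mean counts of 18.7, 13.5 and 12.8. By class, the ratio of 24 h to 0 h over these genes was 1.006 for H1, 0.936 for H2A, 1.35 for H2B, 0.248 for H3 (0.116 to 0.496) and 0.630 for H4 (0.441 to 0.902). The H3 value rests on 12 counts at 24 h against 31 counts at 0 h, and the intervals of H1, H2A and H2B held 1.

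HIST genes also differed by the length of their gene model. In RefSeq, 7 of the 63 HIST genes span more than 1000 bases: HIST1H2BC, HIST1H2BD, HIST1H2BK, HIST1H3D, HIST1H3E, HIST2H2BE and HIST2H2BF. All 7 were measured, against 18 of the 56 shorter ones, and the 7 held 52.4% of HIST counts. Their median change was 0.23, 0.44, 0.23, 0.69 and 0.88 at 3, 6, 12, 24 and 48 h, against -0.01, -0.12, -0.35, -0.39 and 0.15 for the 18 shorter. At 24 h, 6 of 7 longer genes lay above 0 against 6 of 18. With the trend of change on GC content removed, the medians at 24 h were 1.08 and -0.04, and at 48 h 1.09 and 0.42. The grouping was made after the values were seen, and 5 of the 7 are H2B genes. At 24 h the longer H2B genes were at 0.74 (HIST1H2BC), 0.83 (HIST1H2BD), 0.29 (HIST1H2BK), 1.31 (HIST2H2BE) and -0.31 (HIST2H2BF). The shorter H2B genes, with fewer counts, were at 0.22 (HIST1H2BF), -0.52 (HIST1H2BG), -0.38 (HIST1H2BJ), -0.37 (HIST1H2BL) and 0.30 (HIST1H2BN). Among H3 genes, HIST1H3D (0.39) and HIST1H3E (0.69) are longer and HIST1H3H (-0.61) is shorter. GENCODE v29 models differ from these spans: the paired transcript is 381 bases in HIST1H2BK and 1534 bases in HIST1H2BG. Another grouping took the 13 measured genes with a GENCODE transcript running 100 or more bases past the stem-loop. Their medians were 0.16, 0.33, -0.21, 0.01 and 0.50 at the same times, against 0.17, -0.12, -0.22, -0.30 and 0.16 for the other 12. Whether length or class goes with the change was not tested.

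**Figure D4:**
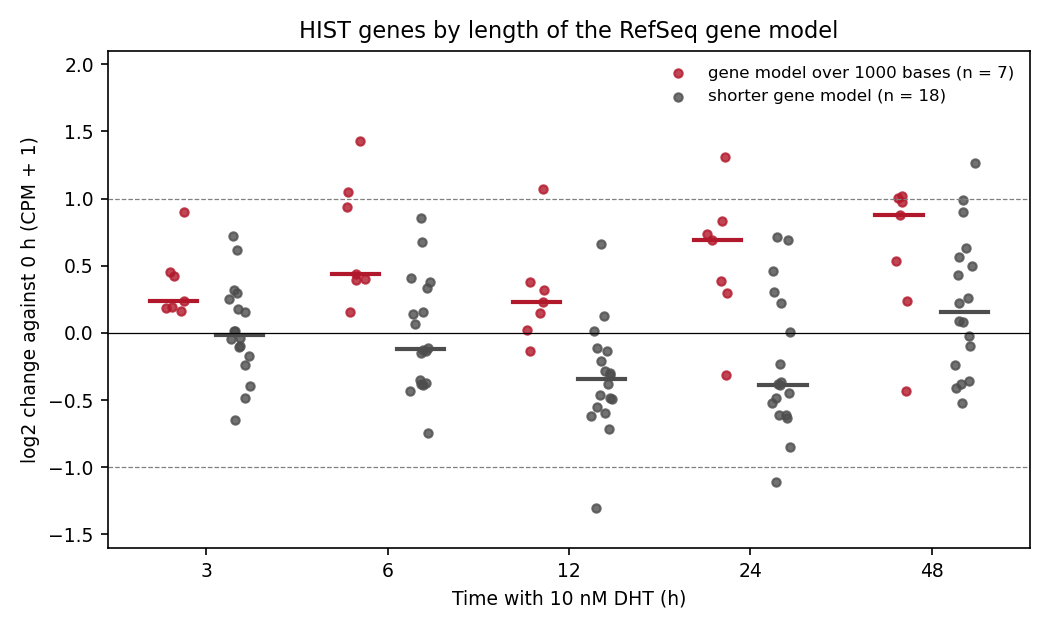
Change against 0 h (y axis, log2 of CPM + 1) by time with DHT (x axis, h) for the 7 HIST genes whose RefSeq model spans over 1000 bases (red) and the 18 measured genes with shorter models (grey). Points are genes, thick bars medians and dashed lines 2-fold. The median of the longer models lies above that of the shorter ones at every time, 0.69 against -0.39 at 24 h.

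Genes that act on histone supply or mark S phase give the setting of these values. The S phase list held 17 genes, all measured, with median changes of 0.50, 0.39, 0.38, -0.42 and -0.24 at 3, 6, 12, 24 and 48 h. At 24 h, 1 was higher and 2 lower, beside the 10.5% and 10.8% of all genes given above. Its GC-corrected medians at 6 and 12 h were 0.02 and 0.10. CDC6, which loads the replicative helicase, had 29.5 CPM at 24 h against 12.0 CPM at 0 h. The helicase subunits MCM2 and MCM3 had 46.2 CPM and 34.4 CPM at 24 h, against 107 and 71.8 CPM at 0 h. Their log2 changes of -1.20 and -1.04 were -0.73 and -0.83 with the GC trend removed, short of 2-fold. In these bulk samples, fewer cells in S phase and less RNA per cell cannot be told apart.

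Among 11 measured histone genes outside the clusters, most of them replication-independent variants, 0 were higher and 2 lower at 24 h. Of all genes, 10.5% were higher and 10.8% lower then, and the median of the 11 was -0.20. H2AFX, which encodes the damage-marking variant H2A.X, had 36.1 CPM at 24 h against 78.9 CPM at 0 h. CENPA, the centromeric H3, had 1.17 CPM against 3.41 CPM. Of the 9 genes for histone gene transcription, CASP8AP2, a co-factor of NPAT at histone loci, was higher at 24 h (4.71 CPM against 1.21 CPM at 0 h), and CCNE1, the cyclin that activates CDK2, was lower (5.78 CPM against 13.4 CPM at 0 h). The list of 7 genes for histone mRNA decay had 3 higher and 0 lower at 24 h, beside 10.5% and 10.8% of all genes. Its median was 0.70. ZCCHC6, a uridylyltransferase that tags histone mRNAs, had 156 CPM at 24 h against 27.3 CPM at 0 h, and XRN1, the 5′ exonuclease, 80.2 CPM against 24.3 CPM. With the GC trend removed, the median of that list was 0.25 and 1 of 6 genes was higher, ZCCHC6, while XRN1 was at 0.91. Of all genes, 7.09% were higher at 24 h under that setting. Under the same setting H2AFX (-0.41) and CASP8AP2 (0.67) were short of 2-fold as well, and CENPA (-1.02) was not.

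Of 11 genes for the 3′ end processing of histone mRNA, 0 passed 2-fold at 24 h, and the median was 0.21. Of all genes, 10.5% were higher and 10.8% lower at that time. CPSF2, a subunit of the cleavage factor, had 118 CPM at 24 h against 61.5 CPM at 0 h, and LSM11, of the U7 snRNP, 3.79 CPM against 6.75 CPM. With the GC trend removed, CPSF2 was at 0.29, LSM11 at -0.88 and the list median at -0.05. Under that setting 1 of the 11, LSM10 (1.03), was higher and 0 lower, against 7.09% and 6.58% of all genes. SLBP, which binds the stem-loop, had 9.32 CPM at 12 h against 32.9 CPM at 0 h, and it lies on chromosome 4, where the median log2 change of all 379 measured genes was -2.15 at 12 h. No HIST gene lies on that chromosome. Of 19 histone chaperones and deposition enzymes, 2 were higher and 0 lower at 24 h, beside the same 10.5% and 10.8% of all genes. Their median was -0.24. HAT1, which acetylates new H4, had 52.5 CPM against 15.6 CPM at 0 h, and ATRX, which deposits H3.3, 73.4 CPM against 25.0 CPM. ATRX was at 0.72 with the GC trend removed, short of 2-fold. A list of 15 RNAs that lack a poly(A) tail matched no gene of the table.

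Several HIST genes share sequence closely with each other, and the counting tool and its handling of multiple matches were not stated for the table. HIST1H2AD overlaps HIST1H3D, HIST1H2BK overlaps HIST1H4I, and HIST2H2BF overlaps FCGR1A. Whether strand was used is likewise not stated, so the reads of such neighbours may be mixed.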

How the data were processed

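RNA-seq was done on 6 LNCaP libraries, 1 per time, from total RNA. The authors deposited raw counts per transcript model with RPM values (reads scaled to a common total) beside them, per the file headers. The build was hg19, per the submitters' processing notes; aligner and counting tool: not given in the sources used here. Of 18051 lines, 50 were exact repeats and were dropped. Counts were divided by the listed total of each library, which was 86.9% to 89.5% of the denominator behind the deposited RPM, giving CPM. Genes with a mean count of at least 20 were compared on log2(CPM + 1), and a 2-fold difference was called. With 1 library per group no test across genes was run. Ratio intervals are exact binomial, level intervals exact Poisson, both at 95%. The GC trend was removed by lowess with a span of 0.3, using GENCODE v29 transcripts, for 11140 genes. Every measured HIST gene is named in the text or in the plot of changes by gene, and of each list up to 4 measured members, taken by the size of their change at 24 h. SLBP was named outside that rule, after its values were seen. The members and lists were chosen with earlier results of these data known. Promoters and gene spans are from RefSeq on GRCh38.p14 and were matched by gene name, not by hg19 coordinates. The fold rule was tested on simulated data. Python 3.11.15, numpy 2.4.6, pandas 2.3.3, scipy 1.17.1, statsmodels 0.14.6 and matplotlib 3.10.9 were used.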

Additional observations from a re-analysis of the deposited data

How the results depend on the processing

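The counts of HIST genes past 2-fold are small, and many moved with the settings; the cause was not tested. Of 116 values of these counts and of the 24 h and 48 h medians under the alternatives, 92 stayed equal or close to those reported. A nonzero count within 1.5-fold of the reported one was taken as close. A median was taken as close when it lay inside the median counting interval of the HIST genes. The 92 thus include values that changed. With median-of-ratios scaling, 1 was higher at 6 h, 0 lower at 24 h and 5 higher at 48 h. A pseudocount of 0.25 CPM gave 4 higher at 6 h and 6 at 48 h, and one of 5 CPM gave 1 higher at 6 h, 0 lower at 24 h and 1 higher at 48 h. A 1.5-fold rule gave 3 higher and 1 lower at 3 h, 5 and 1 at 6 h, 2 and 4 at 12 h, 6 and 5 at 24 h, and 8 higher at 48 h. With the GC trend removed, 3 were higher at 6 h, 0 higher at 12 h, 6 higher and 0 lower at 24 h, and 8 higher at 48 h. With 0 h and 3 h averaged as the control, 1 was higher at 6 h, 0 at 12 h and 0 at 24 h. The 3 h library was from DHT-treated cells, so this control takes in part of any early change. Of the 9 called gene values, 1 stayed past 2-fold under all alternatives (HIST3H2A at 12 h), 13 uncalled ones passed under some, and 27 of 125 changed sign under some. No paired analysis was possible because each group has 1 library. Depth limits the HIST genes with a mean under 20 counts, for which no single-gene call was made.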
